A study of Mus musculus with 5 samples.

Results

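A set of 10 transcription factor genes that act in T cell development and in the resting, naive state of T cells were followed in CD4+ T cell samples from mouse tumors and spleens. The genes were Tcf7, Lef1, Satb1, Bach2, Foxp1, Foxo1, Ets1, Bcl11b, Gata3 and Runx1, and all 10 were found by symbol among the 19726 genes listed. They were chosen by their TPM in these same libraries, tumor against spleen and relative to Cd3e and Cd4, so their differences between the tissues are given as descriptions, without a test. The tumor group holds replicates 2 and 3 (n = 2) and the spleen group replicates 1, 2 and 3 (n = 3), and both tissues came from wild-type C57/Bl6j mice of 7 weeks. The tumors were of MC38, a transplantable mouse colon carcinoma line. How the CD4+ cells were isolated, and whether each library came from 1 mouse or a pool, is not stated in the sources. Values are TPM, a measure of transcript abundance scaled by transcript length and library, so levels of different genes can be set side by side within a library. A log2 difference is tumor minus spleen on log2(TPM + 1), with its standard error (SE) from a model fitted across all 12979 genes tested.

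TCF-1, the product of Tcf7, and its relative LEF-1 bind the same DNA element, take up β-catenin or corepressors of the TLE family, and keep naive and memory-like T cells in a state able to renew. FOXO1 and FOXP1 hold resting T cells in quiescence, and BACH2 represses effector genes. BCL11B, GATA3, RUNX1, ETS1 and SATB1 guide precursors in the thymus into the T lineage, and several of them stay on in mature cells. Many of these factors are lower in T cells that have become effectors.

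Before the members, the libraries themselves were compared. The 13 T cell identity genes, among them Cd3e and Cd4, had a summed level of 328 and 256 TPM in tumor, against 1034, 1364 and 1127 TPM in spleen, and 13 of 13 passed the test as lower in tumor. The 12 macrophage and monocyte markers had a summed level of 4021 and 4494 TPM in tumor, against 13.6, 12.5 and 13.4 TPM in spleen, and 12 of 12 passed the test as higher. None of these markers was at 0 in every library, and their part in the results on the members was not tested. In such bulk samples, fewer cells of a type and less RNA per cell cannot be told apart. Summed dendritic cell markers were 101 and 150 TPM in tumor and 16.1, 11.1 and 12.9 TPM in spleen. Of these 6 genes 1 was not tested, and 2 were called higher and 0 lower in tumor, where Itgax alone was at 87.8 and 136 TPM. Summed neutrophil markers were 69.9 and 75.6 TPM in tumor and 25.1, 18.6 and 20.6 TPM in spleen. Of these 7 genes 2 were not tested, and 2 were called higher and 1 lower in tumor, where Csf3r alone was at 53.1 and 57.8 TPM. The B cell markers gave 32.9 and 39.1 TPM in tumor and 28.2, 24.4 and 28.1 TPM in spleen. Of these 8 genes 1 was not tested, and 2 were called higher and 1 lower in tumor, where Blnk alone was at 12.8 and 14.2 TPM. The CD8 T cell markers gave 5.48 and 4.92 TPM in tumor and 7.34, 7.07 and 6.44 TPM in spleen, with 1 of 2 called lower. For all of these marker counts, the share over all tested genes was 40.9% called higher and 18.1% called lower. As a gauge of low values, the 95th percentile of 1134 olfactory receptor genes, which T cells are not known to use, was 7.59 and 10.7 TPM in tumor replicates 2 and 3, and 16.2, 10.6 and 13.8 TPM in spleen replicates 1, 2 and 3. Of the 10 members, 5 and 4 lay above that level in the tumor libraries, and 9, 10 and 9 in the spleen libraries.

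Of the 10 members, 9 were lower in both tumor libraries than in each of the 3 spleen libraries, and 1, Runx1, was higher in both. No member's tissues overlapped, where 70.4% of all tested genes did not overlap, 46.6% being higher in tumor and 23.8% lower. By limma 59.0% of all tested genes were called at an adjusted p below 0.05, 40.9% higher and 18.1% lower, and the same contrast served to choose the members, so nothing is read from their own calls. Their median log2 difference was -2.35, beside 0.23 for all genes tested. Summed over the 10 genes, the level was 203 and 190 TPM in tumor and 658, 1124 and 733 TPM in spleen.

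**Figure D1:**
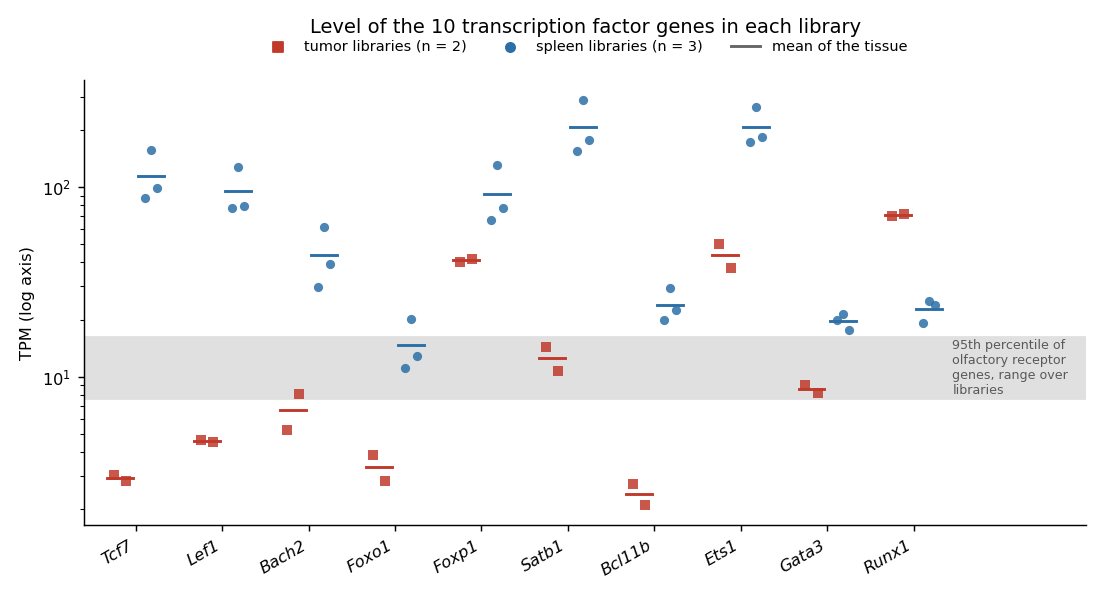
Level of each of the 10 members in every library, in TPM on a log axis, with tumor libraries left of spleen libraries, 1 point per library and a line at each mean. The grey band spans the 95th percentile of olfactory receptor genes, 7.59 to 16.2 TPM over the libraries. The tissues do not overlap for any member; Runx1 is the gene whose tumor points, 70.4 and 72.0 TPM, lie above its spleen points.

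Tcf7 encodes TCF-1, the HMG-box factor that opens the T cell programme in the thymus. Its level was 3.04 and 2.80 TPM in tumor replicates 2 and 3, against 87.6, 156 and 98.8 TPM in spleen replicates 1, 2 and 3. Both tumor values were low and close to each other, and the lowest spleen value was far above them. The mean was 2.92 ± 0.17 TPM in tumor (SD, n = 2) and 114 ± 36.9 TPM in spleen (SD, n = 3), a 39.2-fold lower mean in tumor. The log2 difference was -4.83 ± 0.22 (SE), and none of the tested genes had a lower one. The tumor values lay above 88.2% and 82.7% of the olfactory receptor genes, so they were under the 95th percentile of those genes.

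Lef1 encodes the partner LEF-1, which shares much of its work with TCF-1 in thymocytes and naive T cells. It was listed at 4.62 and 4.52 TPM in tumor, against 77.7, 128 and 79.2 TPM in spleen. The tumor libraries were level with each other, and no tumor value was near any spleen value. The log2 difference was -4.07 ± 0.22, a 20.8-fold lower mean. Within a library, Lef1 was above Tcf7 in tumor, at 1.52 and 1.62 times its TPM, and below it in spleen, at 0.887, 0.816 and 0.801 times. The tumor values of Lef1 lay above 92.0% and 89.2% of the olfactory receptor genes. Both genes were thus under the 95th percentile in tumor, which limits what their order there can show.

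The 2 genes of this pair that stood furthest from spleen, Tcf7 and Lef1, are shown by the stretch of 250 bases before to 50 bases after a transcript start, read from RefSeq on GRCm38.p6. Tcf7 lies at chr11:52252371-52283014 on the minus strand and Lef1 at chr3:131110471-131224356 on the plus strand. Each gene has more than 1 annotated start, and those shown are the starts whose window held at least 1 of the motifs searched. They are start 2 of Tcf7 and start 4 of Lef1, each the last along its gene. The windows of the earlier starts of both genes, those at the 5′ end among them, held none of the motifs. The windows cover chr11:52282546-52282845 (minus strand) and chr3:131156044-131156343 (plus strand), and are written from 5′ to 3′ along the gene. Capitals mark the motifs, TTCCGG (the ETS core CCGGAA on the other strand) and GTAAACA (the forkhead core TGTTTAC on the other strand) in Tcf7, and TCAAAG (the TCF/LEF core CTTTGA on the other strand) and TTATCT (the GATA core AGATAA on the other strand) in Lef1.
Tcf7 promoter: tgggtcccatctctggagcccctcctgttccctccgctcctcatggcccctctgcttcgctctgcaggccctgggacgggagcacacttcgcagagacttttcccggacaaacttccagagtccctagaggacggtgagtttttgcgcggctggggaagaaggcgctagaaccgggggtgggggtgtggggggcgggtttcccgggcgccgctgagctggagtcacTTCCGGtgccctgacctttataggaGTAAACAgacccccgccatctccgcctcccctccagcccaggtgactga
Lef1 promoter: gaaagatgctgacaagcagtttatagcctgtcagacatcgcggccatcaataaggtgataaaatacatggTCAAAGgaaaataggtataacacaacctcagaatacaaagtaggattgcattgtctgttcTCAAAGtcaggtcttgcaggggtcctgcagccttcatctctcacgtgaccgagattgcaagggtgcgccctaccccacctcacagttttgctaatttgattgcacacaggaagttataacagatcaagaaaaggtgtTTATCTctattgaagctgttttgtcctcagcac
The Lef1 window held 2 copies of the TCF/LEF core, on the same strand. Of 32851 RefSeq promoters of the same length, the TCF/LEF core was found in 16.0%, the ETS core in 14.9%, the GATA core in 11.2% and the forkhead core in 3.65%, each on either strand. RefSeq promoters were matched for 9 of the 10 members, 20 windows in all, of which some overlap, and 4 of the 20 held the TCF/LEF core (in Bach2, Bcl11b, Foxp1 and Lef1). A match of this kind describes the letters and shows no binding.

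Among the genes tied to quiescence, Bach2, which encodes a repressor that competes with AP-1 factors for DNA, was at 5.22 and 8.14 TPM in tumor, against 29.7, 61.9 and 39.0 TPM in spleen. The tumor libraries differed by more from each other than for Tcf7 or Lef1, but the lowest spleen value was still well above both. The log2 difference was -2.50 ± 0.23, a 6.52-fold lower mean. Foxo1 encodes a forkhead factor that holds expression of the IL-7 receptor. It was at 3.84 and 2.80 TPM in tumor, against 11.1, 20.2 and 12.8 TPM in spleen. Foxo1 was the lowest of the members in each spleen library. Its tumor values lay above 90.1% and 82.7% of the olfactory receptor genes. Its spleen values lay above 92.2%, 97.8% and 94.8% of them, so under their 95th percentile in spleen replicates 1 and 3 as well. Its log2 difference was -1.83 ± 0.22. In tumor replicate 3, Foxo1 and Tcf7 were listed at the same value. Foxp1 encodes the forkhead factor that keeps naive T cells from entering the cycle. It was at 40.2 and 41.9 TPM in tumor, against 66.7, 130.04 and 77.3 TPM in spleen, for a log2 difference of -1.08 ± 0.23. Its tumor values were about level with each other, and, unlike those of Foxo1, above that 95th percentile in both libraries.

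Of the genes of the T lineage, Satb1 encodes a chromatin organiser that arranges loci needed in thymocytes. It was at 14.3 and 10.7 TPM in tumor, against 154, 287 and 178 TPM in spleen. Satb1 was 1st or 2nd of the 10 members in every spleen library and 4th in both tumor libraries. Its log2 difference was -3.90 ± 0.23, a 16.5-fold lower mean. Bcl11b, the zinc finger gene that fixes T lineage commitment, was at 2.71 and 2.10 TPM in tumor, against 19.8, 29.5 and 22.3 TPM in spleen. It was the lowest member in both tumor libraries, and its log2 difference was -2.86 ± 0.21. Ets1, an ETS factor needed for the survival of T cells, was at 49.98 and 37.2 TPM in tumor, against 172, 265 and 184 TPM in spleen. Even in tumor it ranked 2nd or 3rd among the members, with a log2 difference of -2.21 ± 0.22. Gata3, the factor of T lineage and type 2 helper cells, was at 9.001 and 8.22 TPM in tumor, against 19.8, 21.5 and 17.6 TPM in spleen. The gap was narrow, but both tumor values were less than the lowest spleen value, and the log2 difference was -1.10 ± 0.21.

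Runx1 encodes a DNA-binding partner of CBFβ that represses Cd4 in early thymocytes and is also used by blood stem cells and myeloid cells. Its level was 70.4 and 72.0 TPM in tumor, against 19.1, 25.1 and 23.97 TPM in spleen. The 2 tumor libraries were nearly level and each exceeded the highest spleen library. The mean was 71.2 ± 1.14 TPM in tumor and 22.7 ± 3.20 TPM in spleen, 3.13-fold higher in tumor, with a log2 difference of 1.61 ± 0.21. Runx1 was the highest of the members in both tumor libraries and between 7th and 9th in the spleen libraries. The windows of 2 of its annotated starts that held a motif lie at chr16:92826025-92826324 (start 1) and chr16:92697280-92697579 (start 2), both on the minus strand of GRCm38.p6, and are printed because the gene went the other way from the rest. Capitals mark ACCACA (the RUNX core TGTGGT on the other strand) at start 1 and the ETS core CCGGAA at start 2.
Runx1 start 1 promoter: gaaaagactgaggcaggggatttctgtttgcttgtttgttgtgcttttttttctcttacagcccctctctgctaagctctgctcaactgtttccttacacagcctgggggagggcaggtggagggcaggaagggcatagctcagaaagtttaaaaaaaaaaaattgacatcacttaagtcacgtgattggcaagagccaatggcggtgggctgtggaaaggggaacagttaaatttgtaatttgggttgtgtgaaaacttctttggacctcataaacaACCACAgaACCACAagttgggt
Runx1 start 2 promoter: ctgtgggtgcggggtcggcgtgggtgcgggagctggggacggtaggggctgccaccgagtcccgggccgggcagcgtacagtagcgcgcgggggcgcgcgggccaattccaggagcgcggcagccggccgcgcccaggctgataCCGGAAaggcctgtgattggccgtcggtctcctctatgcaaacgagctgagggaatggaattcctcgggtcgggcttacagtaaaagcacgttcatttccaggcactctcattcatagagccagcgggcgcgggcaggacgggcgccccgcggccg
The RUNX core, searched as TGTGGT or TGCGGT on either strand, was in 22.4% of the 32851 promoters and in 2 of the 20 member windows, those of Foxp1 and Runx1. The letters TGAGTCA, the core bound by AP-1 and BACH factors, occurred in 5.20% of all promoters and in 0 of the 20 windows.

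The spleen libraries stood in the same order for most members. Replicate 2 was the highest of the 3 for 10 of 10 members and replicate 1 the lowest for 9, and replicate 2 exceeded the mean of the other libraries by factors of 1.15 (Gata3) to 1.81 (Foxp1). All 13 T cell identity genes were also highest in spleen replicate 2, by factors of 1.09 to 1.59. So was the sum over all listed genes, at 359532 TPM, against 268987 TPM in replicate 1 and 292344 TPM in replicate 3. What share of all tested genes had this order was not counted. Between the tumor libraries, replicate 2 was the higher for 7 of the 10 members.

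Since the T cell identity genes were lower in tumor, the members were next set against Cd3e and Cd4, which encode a chain of the CD3 complex and the CD4 coreceptor. Cd3e was at 13.8 and 12.9 TPM in tumor, against 70.7, 114 and 73.3 TPM in spleen, and Cd4 at 26.8 and 27.2 TPM in tumor, against 97.7, 131 and 116 TPM in spleen. Relative to the geometric mean of both in the same library, 4 members were lower in tumor without overlap, 3 were higher and 3 overlapped. Among all tested genes, 0.963% were lower in this ratio without overlap and 96.6% were higher, and the ratio too was part of how the members were chosen.

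The ratio for Tcf7 was 0.158 and 0.150 in tumor, against 1.05, 1.28 and 1.07 in spleen, a 7.38-fold lower mean. That for Lef1 was 0.240 and 0.242 in tumor, against 0.935, 1.04 and 0.859 in spleen. Both genes, which were near the level of the T cell genes in spleen, were thus well under them in tumor. Satb1 had ratios of 0.744 and 0.573 in tumor, against 1.85, 2.35 and 1.93 in spleen. Bcl11b had 0.141 and 0.112 in tumor, against 0.239, 0.241 and 0.242 in spleen, the narrowest gap of the 4 lower members. On the log2 scale the ratio differences were -2.88 for Tcf7, -1.97 for Lef1, -1.64 for Satb1 and -0.94 for Bcl11b.

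The tissues overlapped for Bach2, whose ratio was 0.272 and 0.436 in tumor, against 0.357, 0.507 and 0.424 in spleen. They also overlapped for Ets1, at 2.60 and 1.99 in tumor, against 2.07, 2.17 and 2.00 in spleen, and for Foxo1, at 0.200 and 0.150 in tumor, against 0.134, 0.165 and 0.139 in spleen. With 1 library left out, the log2 ratio difference of Bach2 ranged from -0.64 to 0.04, that of Ets1 from -0.06 to 0.32 and that of Foxo1 from 0.04 to 0.46. For these 3 genes the lower TPM in tumor came with Cd3e and Cd4 lower by about as much. Gata3 had ratios of 0.468 and 0.440 in tumor, against 0.238, 0.176 and 0.191 in spleen. Foxp1 had 2.09 and 2.24 in tumor, against 0.802, 1.06 and 0.839 in spleen. Gata3 and Foxp1 thus lay lower in tumor by TPM and higher by the ratio, with no overlap either way. Their log2 ratio differences, 1.18 and 1.27, were under the median of all tested genes, 2.64. Runx1 had 3.66 and 3.85 in tumor, against 0.230, 0.206 and 0.260 in spleen, a 16.2-fold higher mean.

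The count depends on which T cell gene is used. Cd4 over Cd3e was 1.95 and 2.11 in tumor, against 1.38, 1.15 and 1.58 in spleen. Relative to Cd3e alone, 4 members were lower, 5 higher and 1 (Bach2) overlapped, where 0.663% of all tested genes were lower and 97.4% higher. Relative to Cd4 alone, 5 were lower, 3 higher and 2 (Foxo1 and Ets1) overlapped, where 1.31% of all genes were lower and 95.1% higher. Bach2 was the member that joined the lower ones by Cd4, with a log2 ratio difference of -0.59. Relative to all 13 T cell identity genes the split was again 4 lower, 3 higher and 3 overlapping, where 1.17% of all genes were lower and 95.3% higher.

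**Figure D2:**
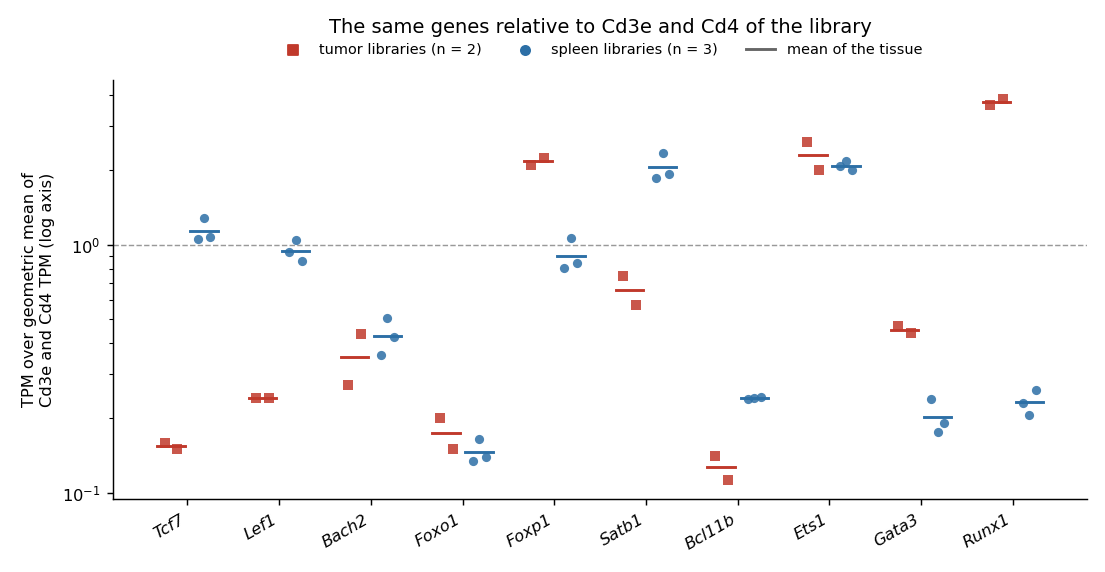
Ratio of each member's TPM to the geometric mean of Cd3e and Cd4 TPM in the same library, on a log axis, tumor libraries left of spleen libraries, 1 point per library and a line at each mean; the dashed line marks a ratio of 1. Tcf7, Lef1, Satb1 and Bcl11b lie lower in tumor, Gata3, Foxp1 and Runx1 higher, and Bach2, Ets1 and Foxo1 overlap.

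The order of the members within a library needs no T cell gene for reference. As a share of the summed TPM of the 10 genes, Runx1 took 34.6% and 37.8% in tumor, against 2.90%, 2.24% and 3.27% in spleen. Foxp1 took 19.8% and 22.0% in tumor, against 10.1%, 11.6% and 10.5% in spleen. These 2 genes with Ets1 made up most of the members' signal in tumor, while Ets1, Satb1 and Tcf7 led in spleen. Tcf7 took 1.49% and 1.47% in tumor, against 13.3%, 13.9% and 13.5% in spleen, and Satb1 7.03% and 5.62% in tumor, against 23.4%, 25.5% and 24.3% in spleen. The share of Ets1 overlapped between the tissues, at 24.6% and 19.5% in tumor and 26.2%, 23.6% and 25.1% in spleen, as did that of Foxo1. Runx1 over Tcf7, in which any scaling of a library cancels, was 23.2 and 25.8 in tumor, against 0.218, 0.161 and 0.243 in spleen.

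**Figure D3:**
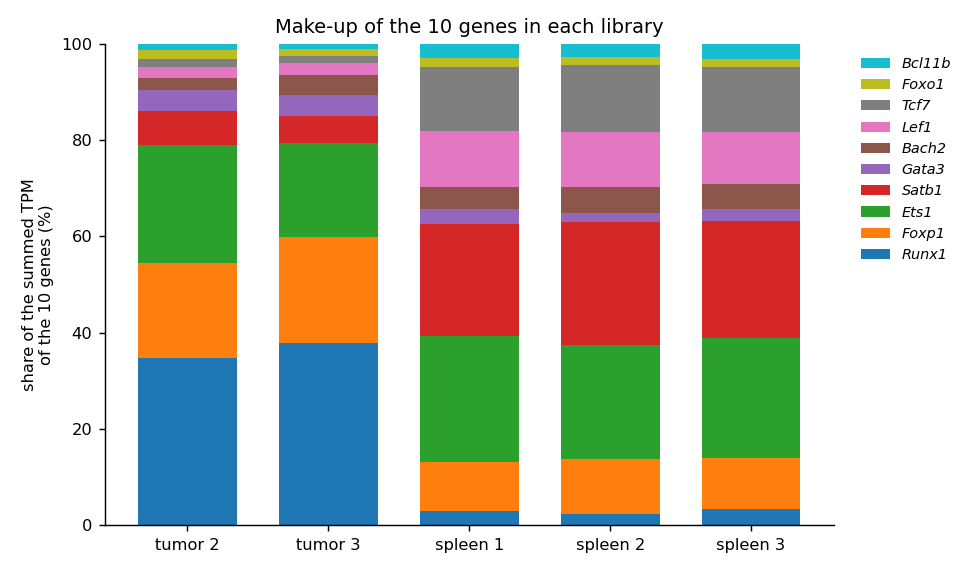
Share of each member in the summed TPM of the 10 members, in percent, with 1 stacked bar per library and tumor bars left of spleen bars. Runx1 fills 34.6% and 37.8% of the tumor bars and 2.24% to 3.27% of the spleen bars.

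TPM are parts of a whole, and the genes listed summed to 596116 and 569309 TPM in tumor, against 268987, 359532 and 292344 TPM in spleen, so other scalings were tried. Under median ratios, equal totals, equal totals without the top 20 genes, and the upper quartile, the signs of all 10 members stayed as deposited, with Tcf7 between -5.66 and -5.12 and Runx1 between 0.63 and 1.28. When the T cell identity genes were set equal, Tcf7 was at -2.92, Lef1 at -2.08, Satb1 at -1.81 and Bcl11b at -1.03, and Runx1 at 3.71. Under that scaling Foxp1 turned to 1.05 and Gata3 to 0.91, while Bach2 (-0.48), Ets1 (-0.08) and Foxo1 (0.04) were near 0. The median of all tested genes itself moved to 2.09 there, against 0.23 as deposited.

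**Figure D4:**
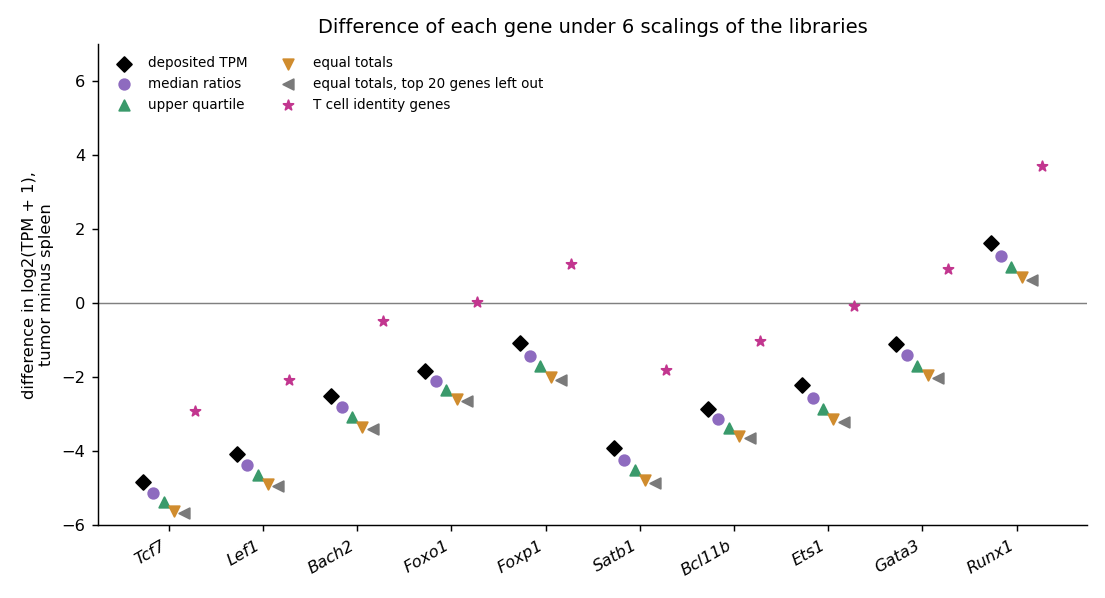
Log2 difference, tumor minus spleen, of each member under 6 scalings of the libraries, with 1 point per scaling. The 9 lower members stay below 0 except where T cell identity genes are set equal, where Foxp1, Gata3 and Foxo1 lie above 0.

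Paralogues are close relatives of a gene within the same genome, and 16 of those of the members were listed, 14 of them with a mean of at least 1 TPM. By limma with Benjamini-Hochberg adjustment over all 12979 genes, 6 of the 14 rose in tumor, beside 40.9% of all genes, 1 fell and 7 did not pass. The median of the 14 was 0.19, beside 0.23 for all genes.

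The largest change was in Ets2, an ETS factor close to ETS1 that is widely used in myeloid cells. Ets2 was at 190.9 and 190.7 TPM in tumor, against 3.04, 4.23 and 3.54 TPM in spleen, a log2 difference of 5.39 ± 0.21 (limma, adjusted p = 1.2e-27). Ets1 made up 20.8% and 16.3% of the summed level of the pair in tumor and 98.3%, 98.4% and 98.1% in spleen, and the sum, 241 and 228 TPM in tumor and 175, 270 and 188 TPM in spleen, overlapped. Bach1, a broadly expressed relative of Bach2, was at 94.5 and 114 TPM in tumor, against 3.95, 4.62 and 3.77 TPM in spleen, with a log2 difference of 4.36 ± 0.21 (limma, adjusted p = 5.5e-24). Both pairs stood the other way round in the tissues: Bach2 over Bach1 was 0.0553 and 0.0714 in tumor, against 7.51, 13.4 and 10.4 in spleen. Runx3, which serves CD8 and cytotoxic programmes and also myeloid cells, was at 64.8 and 88.0 TPM in tumor, against 9.06, 11.6 and 14.1 TPM in spleen (log2 difference 2.62 ± 0.22, limma adjusted p = 5.3e-15). Runx1 nonetheless made up less of the RUNX sum in tumor, 47.9% and 42.3%, against 57.3%, 59.8% and 53.7% in spleen. Ets2, Bach1 and Runx3 were called higher under all 5 other scalings and without any 1 library.

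**Figure D5:**
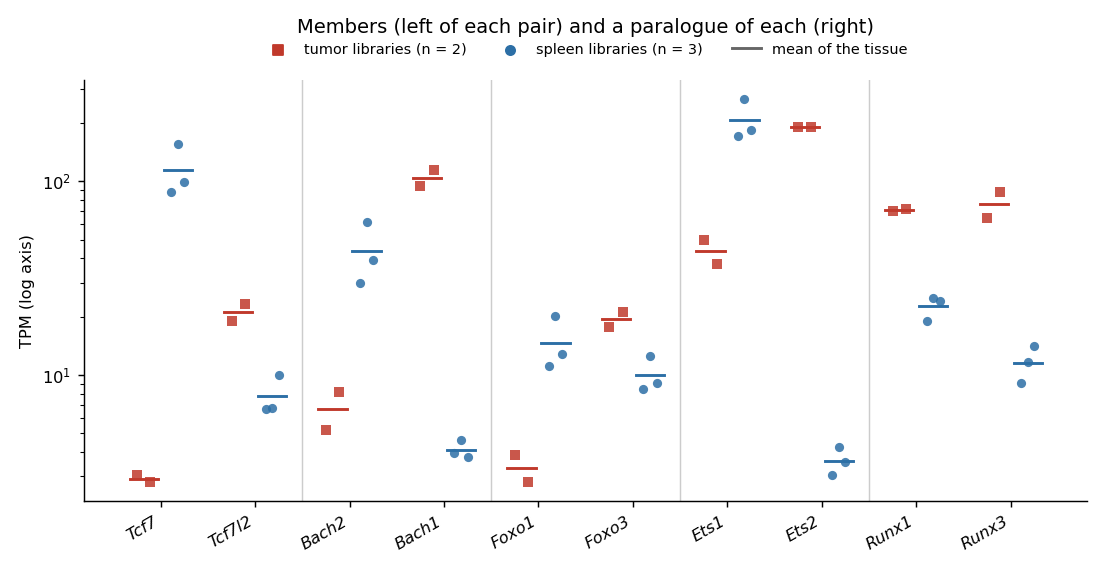
TPM of 5 members, each left of a paralogue, in each library on a log axis, with tumor left of spleen, 1 point per library and a line at each mean. Ets2, Bach1 and Runx3 lie higher in tumor, while Ets1 and Bach2 lie lower.

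Tcf7l2, a TCF of the Wnt pathway outside T cells, was at 19.0 and 23.2 TPM in tumor, against 6.69, 6.74 and 9.95 TPM in spleen, and it rose by 1.34 ± 0.21 on the log2 scale. Its call did not hold at equal totals (0.48, limma adjusted p = 0.096) or with the top 20 genes left out (0.40, limma adjusted p = 0.105). Foxo3, a relative of Foxo1, was at 17.7 and 21.1 TPM in tumor, against 8.47, 12.6 and 9.07 TPM in spleen, and Foxo1 over Foxo3 was 0.217 and 0.133 in tumor, against 1.32, 1.61 and 1.41 in spleen. Foxo3 (0.90) and Runx2 (0.85), the RUNX factor of bone, were called higher, but turned to -0.05 each with the top 20 genes left out. Gata1, an erythroid factor, was the 1 called lower (-1.08), at 0.416 and 2.23 TPM in tumor, against 4.64, 2.76 and 3.35 TPM in spleen, and without tumor replicate 2 it was not called (limma adjusted p = 0.155). Foxp3, the factor of regulatory T cells, was at 12.2 and 10.9 TPM in tumor, against 7.84, 11.7 and 9.85 TPM in spleen, with overlap. Its difference of 0.23 did not pass (limma adjusted p = 0.344) and turned negative under 4 of the 5 other scalings. With T cell identity genes set equal it was 2.22 and called higher, where the median of all tested genes was 2.09. Foxp2 was at -0.46, Foxp4 at -0.41, Foxo4 at -0.36, Bcl11a at -0.35 and Tcf7l1 at 0.15, none of them called, and Tcf7l1 turned negative under 4 of the 5 other scalings while the others turned positive with T cell identity genes set equal. The median of the paralogues was 0.16 without tumor replicate 2, beside 0.27 for all genes. It was 0.23 without tumor replicate 3, beside 0.15 for all genes. Without spleen replicate 2, 6 paralogues were called higher and 3 lower. There 8503 of all genes were called, 69.3% of them higher. The split of the paralogues was 6 higher and 4 lower with median ratios, beside 33.3% and 30.1% of all genes. By the upper quartile it was 4 and 4, where 39.0% of all calls were higher. At equal totals it was 3 and 6, beside 21.0% and 51.3% of all genes. With T cell identity genes set equal it was 13 and 0, beside 94.8% and 0.909% of all genes.

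Of 17 partners and cofactors, all tested, 9 rose, 4 fell and 4 did not pass, against 40.9% and 18.1% of all genes. The small MAF proteins pair with BACH factors on DNA, and all 3 of their genes rose. Maff was at 28.7 and 29.6 TPM in tumor, against 0.643, 0.485 and 1.05 TPM in spleen (log2 difference 4.14), Mafk changed by 2.99 and Mafg by 2.55. Chd4 (0.31) and Bcl9 (-0.38) did not pass. Without spleen replicate 3 the counts were 6 higher and 2 lower. There 6374 of all genes were called, 73.4% of them higher, against 7656 and 69.3% with all libraries. At equal totals they were 4 higher and 9 lower, beside 21.0% and 51.3% of all genes.

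Of 19 other factors of the T lineage, 11 fell, 3 rose and 5 did not pass, where 18.1% of all genes fell and 40.9% rose. Their median log2 difference was -0.64, beside 0.23 for all genes. Patz1, a zinc finger factor of thymocytes, was at 2.61 and 1.98 TPM in tumor, against 13.1, 18.6 and 15.2 TPM in spleen (log2 difference -2.33). Tox, which is needed for CD4 T cell development and is prominent in exhausted T cells, fell to 4.43 and 4.64 TPM in tumor, against 15.3, 24.0 and 18.4 TPM in spleen (-1.85), and Myb, a factor of progenitors and stem-like T cells, changed by -1.60. Patz1 was lower under each scaling, but Tox (0.09) and Myb (0.32) lay above 0 when T cell identity genes were set equal. The ETS factors Elf1 (0.11) and Fli1 (0.26) did not pass and were negative under the other 4 scalings. At equal totals the list held 0 higher and 16 lower, beside 21.0% and 51.3% of all genes. With T cell identity genes set equal it held 14 higher and 1 lower, beside 94.8% and 0.909% of all genes.

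Of 14 genes known as targets of the members in T cells, 11 were tested: 2 rose, 5 fell and 4 did not pass, beside 40.9% higher and 18.1% lower among all genes. Their median was -0.40, beside 0.23 for all genes. The split was 2 higher and 8 lower with median ratios, beside 33.3% and 30.1% of all genes. At equal totals it was 1 and 8, beside 21.0% and 51.3% of all genes. With T cell identity genes set equal it was 7 and 2, beside 94.8% and 0.909% of all genes. The median there was 0.95, under the 2.09 of all tested genes. S1pr1, the receptor that lets T cells leave lymphoid organs, was at 4.07 and 2.90 TPM in tumor, against 56.5, 83.7 and 67.2 TPM in spleen, a log2 difference of -3.96 ± 0.21. Axin2, a feedback gene of Wnt signalling, was at 0.954 and 0.830 TPM in tumor, against 8.75, 9.09 and 7.03 TPM in spleen (-2.29). In every library, spleen included, Axin2 lay under the gauge of low values given above, which limits what its change can show. Prdm1, which BACH2 represses and which encodes BLIMP-1, rose to 34.5 and 42.2 TPM in tumor, against 2.10, 2.90 and 2.24 TPM in spleen (3.53). A link of this rise to the level of Bach2 was not tested, and Prdm1 is also on the list of effector factors below. S1pr1, Axin2 and Prdm1 kept their direction under every scaling tried. Il7r, which encodes the IL-7 receptor and was added with its values known, was at 221 and 182 TPM in tumor, against 85.6, 147 and 87.2 TPM in spleen. It rose by 0.95 ± 0.22 on the log2 scale, but was at 0.03 at equal totals and at -0.05 with the top 20 genes left out, and was called under neither. Klf2, a target of FOXO1, was at 24.5 and 21.01 TPM in tumor, against 21.05, 33.2 and 26.01 TPM in spleen, with overlap and a log2 difference of -0.20 that did not pass and turned positive with T cell identity genes set equal.

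Of 12 factors of effector T cells 11 were tested, and 9 rose, 1 fell and 1 did not pass, beside 40.9% higher and 18.1% lower among all genes. Their median was 2.60, beside 0.23 for all genes. The split was 7 higher and 2 lower at equal totals, where 21.0% of all genes were higher and 51.3% lower. Nfil3, a basic leucine zipper factor, was at 100.1 and 115 TPM in tumor, against 1.22, 0.787 and 0.915 TPM in spleen (log2 difference 5.79). Zeb2 was at 399 and 440 TPM in tumor, against 11.05, 7.18 and 11.4 TPM in spleen (5.30), and Bhlhe40 changed by 4.39. Zeb2, Nfil3 and Bhlhe40 are expressed by myeloid cells as well, and the 4021 and 4494 TPM of macrophage and monocyte markers stood in the same tumor libraries, whose part was not tested. Tbx21, the factor of type 1 helper cells, was at 1.93 and 1.26 TPM in tumor, against 1.82, 3.37 and 2.38 TPM in spleen, with overlap and no call (-0.43). Without tumor replicate 2 the median of the list was 2.45, beside 0.27 for all genes. Without spleen replicate 1 the split was 9 higher and 2 lower. There 7028 of all genes were called, 71.8% of them higher, against 7656 and 69.3% with all libraries.

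Across the 5 lists, 71 genes were tested, of which 28 were called higher and 22 lower, beside 40.9% and 18.1% of all genes. Prdm1, which is on both the target and the effector list, was counted once here. Their median was -0.00, beside 0.23 for all genes. With median ratios the split was 22 higher and 33 lower, where 33.3% of all tested genes were higher and 30.1% lower (63.4% called). At equal totals it was 14 higher and 41 lower, where 21.0% of all genes were higher and 51.3% lower (72.3% called). With T cell identity genes set equal it was 59 higher and 3 lower, where 94.8% of all genes were higher and 0.909% lower (95.7% called).

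The genes whose pattern was most like that of Tcf7 were found by Euclidean distance over the log2(TPM + 1) values of the 5 libraries, each gene centred on its own mean, among 6108 other genes with at least 10 TPM. The nearest were Als2cl (0.79), S1pr1 (1.01), Nsg2 (1.09), Dennd2d (1.09) and Cd40lg (1.23), all lower in tumor. Of the members, Lef1 was at 0.85 with 1 gene nearer, and Satb1 at 1.04 with 3 nearer, while Bcl11b was at 2.18 with 33 nearer. Als2cl was at 1.58 and 1.36 TPM in tumor, against 34.8, 52.6 and 43.0 TPM in spleen, and Cd40lg, the gene of CD40 ligand, at 0.253 and 0.860 TPM in tumor, against 19.3, 25.05 and 18.7 TPM in spleen. The 5 libraries hold a single contrast between tissues, which sets most of these distances, and nothing is read from them about function or control.

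The exons of 6 of the members (Lef1, Foxo1, Bach2, Satb1, Gata3 and Runx1) overlap a gene on the opposite strand in GENCODE M21. The libraries were made with a stranded kit, but whether quantification used strand is not stated, so reads of these pairs may not be told apart. The exons of 3 members (Foxp1, Satb1 and Gata3) also overlap a gene on the same strand, where strand does not separate the reads.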

How the data were processed

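Total RNA of 300000 cells per sample was sequenced after ribosomal RNA depletion with a stranded kit and paired 75 bp reads, as the labels' protocols state. The authors deposited TPM, 1 value per gene symbol and library, made with tools of which kallisto, DESeq2 and the build mm10 are named in the submitters' processing notes, with no role or version. That the unit is TPM is taken from the fractional values and their sums. Counts cannot be had from TPM, so precision from counting is not stated.

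From the TPM, log2(TPM + 1) was computed where a gene's mean reached 1 TPM (12979 of 19726). These values were fitted by tissue alone in limma 3.58.1 under R 4.3.3, with its trend option. Tests were two-sided, p-values were adjusted by Benjamini-Hochberg, and the threshold was 0.05. With 3 residual and 44.1 prior degrees of freedom, each gene's error is mostly that of genes of like level. The test was also run on simulated libraries with known changes. Their errors were drawn independently from the fitted variances, without effects shared by a library. That run therefore cannot show how the test behaves under such effects. The labels do not say that replicates are separate mice, so the p-values cover only the spread seen between libraries, possibly a technical one.

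The members and lists were chosen with earlier results of these data known. Related genes were named by rule: per list the 3 called genes with the largest change and up to 2 uncalled ones with the highest mean, and every tested paralogue; some genes the rule names are not reported here. Tle5 was found under its older symbol Aes. Promoters are RefSeq's on GRCm38.p6 and gene positions GENCODE M21's on GRCm38.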

Additional observations from a re-analysis of the deposited data

How the results depend on the processing

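The number of genes called was 7656. It was 4395 with a mean of at least 10 TPM required and 12426 with T cell identity genes set equal, and it ranged from 5916 to 8503 when 1 library was left out. Of the related genes 50 were called, and 39 to 53 without 1 library. The members' median log2 difference, -2.35, was -1.54 with a pseudocount of 10, -3.23 at equal totals, -3.31 with the top 20 genes left out, -2.96 by the upper quartile and -0.28 with T cell identity genes set equal, and ranged from -2.53 to -2.12 without 1 library. The members' median log2 difference in the ratio to Cd3e and Cd4 was -0.09, beside 2.64 for all genes tested. It was 0.20 with Cd3e alone and -0.38 with Cd4 alone, and -0.16 to -0.01 without 1 library.

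With T cell identity genes set equal, these values changed sign: Foxp1 1.05, Foxo1 0.036, Gata3 0.91, Foxp2 1.63, Foxp4 0.96, Foxo4 1.47, Bcl11a 1.07, Gata1 0.32, Bcl9 1.52, Tox 0.094, Myb 0.32, Klf2 1.88 and Tbx21 1.04. At equal totals Foxp3 (-0.62), Tcf7l1 (-0.44), Chd4 (-0.61), Elf1 (-0.81) and Fli1 (-0.64) did so, with the top 20 genes left out Foxp3 (-0.69), Tcf7l1 (-0.49), Foxo3 (-0.046), Runx2 (-0.053), Chd4 (-0.69), Elf1 (-0.88) and Fli1 (-0.71), and by the upper quartile Foxp3 (-0.35), Tcf7l1 (-0.26), Chd4 (-0.33), Elf1 (-0.52) and Fli1 (-0.36). With median ratios Foxp3 (-0.08), Tcf7l1 (-0.07), Chd4 (-0.03), Elf1 (-0.23) and Fli1 (-0.07) changed sign as well. Relative to Cd4 alone, Ets1 was at -0.16 and Foxo1 at -0.04. The cause was not tested.

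Higher calls were 69.3% of all calls as deposited, 52.5% with median ratios, 29.0% at equal totals and 99.1% with T cell identity genes set equal. The labels do not say that shared replicate numbers 2 and 3 pair samples. Deviations of same-numbered libraries correlated at 0.202 and 0.066, and those of tumor replicate 3 and spleen replicate 1 at 0.190. With 2 tumor libraries, the deviations from their mean mirror each other, so these values cannot show whether samples pair. With the replicate number as a block, 6890 genes and 48 related genes were called. With 2 tumor libraries, the left-out fits assume that a lone tumor library varies like the spleen libraries. Levels near the olfactory receptor range limit what can be read in tumor from Tcf7, Lef1, Bach2, Bcl11b and Foxo1, and from Gata3 in tumor replicate 3. The same limit holds for Foxo1 in spleen replicates 1 and 3, and for Axin2 in every library.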
